A study of Mus musculus with 50 samples.

Results

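The genes described here are 5 genes that mark the primitive streak and early mesoderm of the mouse embryo, *T* (brachyury), *Eomes*, *Mixl1*, *Cer1* and *Kdr*, chosen by name out of the 18055 genes of the normalized count table. All 5 were found, and each was followed through 8 RNA-seq libraries and through the peaks of SUZ12, H3K27me3 and H3K27ac around its start sites. The study asked what PRC2, the complex that methylates lysine 27 of histone H3 through EZH1 or EZH2, and the acetylation of the same lysine contribute to gene control in mouse embryonic stem cells (ESCs). ESCs of the line E14TG2a (WT) were compared with *Ezh2* KO ESCs, which keep *Ezh1*, with *Ezh1/2* dKO ESCs, which lack both enzymes, and with *Ezh2* Y726D ESCs, which carry a homozygous point mutation that takes away EZH2 activity in an *Ezh1* KO background. *Ezh2* R685C ESCs, with another point mutation of *Ezh2* edited into *Ezh1* KO cells, entered only the peak lists. The knockouts were large deletions made with CRISPR/Cas9 in E14TG2a, the mutants were screened clones, and the cells grew in 2i/LIF medium with serum. One more peak list came from *Ezh1/2* dKO ESCs transfected with a plasmid for HA-tagged human EZH1 and selected briefly with puromycin, and HA peaks of *Ezh1/2* dKO ESCs without the tagged protein were its control. RNA-seq had 2 libraries for each of WT, *Ezh2* KO, *Ezh2* Y726D and *Ezh1/2* dKO ESCs. The peak lists had 1 library per line and target, so a peak has no replicate error.

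The primitive streak is the region of the gastrulating epiblast where cells leave the epithelium and become mesoderm and endoderm. WNT, NODAL and BMP signals switch on the T-box factors T and EOMES and the homeobox factor MIXL1 there. *Cer1* encodes a secreted antagonist of NODAL, BMP and WNT that is made by the anterior visceral endoderm and by streak-derived endoderm, and *Kdr* encodes the VEGF receptor VEGFR2 of the mesoderm that gives rise to blood and endothelium. In ESCs, such developmental regulators are typical PRC2 targets, with SUZ12, a core PRC2 subunit, and H3K27me3 at CpG-rich start sites, while H3K27ac marks active promoters and enhancers.

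By their mean level over the 8 libraries the 5 genes lay below the middle of the gene table, and none of the 4 that could be tested was called against WT by limma in any mutant. Between mutants limma called *Kdr* alone, higher in *Ezh2* Y726D than in *Ezh2* KO ESCs, and DESeq2 made further calls of *Kdr* and *T*, given with each comparison. At *T*, *Eomes*, *Mixl1* and *Kdr*, H3K27me3 peaks were listed in WT, *Ezh2* KO and *Ezh2* R685C ESCs and in neither *Ezh1/2* dKO nor *Ezh2* Y726D ESCs, whereas SUZ12 peaks were listed at all 4 in *Ezh2* Y726D and at 1 of them in *Ezh1/2* dKO ESCs. H3K27ac peaks within 5 kb of a start site were listed at *T*, *Eomes* and *Mixl1* in *Ezh2* Y726D ESCs and at none of the 5 genes in the other 3 lines with an H3K27ac list, where the *Ezh2* Y726D list held a peak at 47.1% of all protein-coding genes and the others at 28.7% to 46.0%. *Cer1* had no peak of SUZ12, H3K27me3, H3K27ac or HA-tagged EZH1 within 25 kb in any list.

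In the mm9 annotation (GENCODE), *T* (ENSMUSG00000062327) lies at chr17:8627288-8635361 on the plus strand and has 8 exons and 2 start sites. *Eomes* (ENSMUSG00000032446) lies at chr9:118387330-118395250 on the plus strand, with 6 exons and 3 start sites. *Mixl1* (ENSMUSG00000026497) is a gene of 2 exons at chr1:182623174-182627165 on the minus strand, and *Cer1* (ENSMUSG00000038192), also with 2 exons, is at chr4:82527655-82531052 on the minus strand. *Kdr* (ENSMUSG00000062960) spans chr5:76328852-76374483 on the minus strand, with 29 exons. None of the 5 overlaps another annotated gene, so reads counted without strand had no overlapping partner here.

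The 250 bases before the RefSeq start are shown for the 4 genes found in the RefSeq promoter table (GRCm38.p6), *T*, *Eomes*, *Cer1* and *Kdr*, because these are the stretches that SUZ12 and H3K27me3 peaks covered or left out. Each was found once, letter for letter, in mm9, at chr17:8627038-8627287 (plus strand), chr9:118387057-118387306 (plus), chr4:82531056-82531305 (minus) and chr5:76374481-76374730 (minus). The sequences are written 5′ to 3′ along the gene, with CG dinucleotides in capitals:
T: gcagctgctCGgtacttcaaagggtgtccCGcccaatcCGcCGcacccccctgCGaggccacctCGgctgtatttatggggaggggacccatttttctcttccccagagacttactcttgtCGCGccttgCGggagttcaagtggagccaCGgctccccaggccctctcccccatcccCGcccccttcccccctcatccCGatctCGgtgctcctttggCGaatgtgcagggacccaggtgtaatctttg
Eomes: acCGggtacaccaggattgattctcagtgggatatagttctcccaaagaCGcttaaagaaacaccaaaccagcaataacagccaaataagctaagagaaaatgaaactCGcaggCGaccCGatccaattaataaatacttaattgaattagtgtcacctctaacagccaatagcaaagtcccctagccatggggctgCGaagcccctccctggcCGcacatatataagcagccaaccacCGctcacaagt
Cer1: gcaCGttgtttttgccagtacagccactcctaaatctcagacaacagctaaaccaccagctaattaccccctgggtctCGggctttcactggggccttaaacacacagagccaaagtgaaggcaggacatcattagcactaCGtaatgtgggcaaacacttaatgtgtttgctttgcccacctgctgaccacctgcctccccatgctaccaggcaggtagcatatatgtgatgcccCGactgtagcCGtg
Kdr: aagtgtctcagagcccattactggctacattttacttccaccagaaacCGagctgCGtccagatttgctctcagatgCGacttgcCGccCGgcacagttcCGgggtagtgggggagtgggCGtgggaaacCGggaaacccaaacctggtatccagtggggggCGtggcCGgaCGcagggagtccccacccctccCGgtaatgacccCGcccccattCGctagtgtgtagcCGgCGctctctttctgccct
*Kdr* held 16 CG dinucleotides in this window and *T* held 14, more than 74.4% and 70.4% of the 27018 promoters of the same length. *Eomes* held 8 and *Cer1* 5, against a median of 6.0, and 91.7% of all promoters held at least 1. The observed-to-expected CpG ratio was 0.676 at *Kdr*, 0.621 at *Eomes*, 0.594 at *T* and 0.309 at *Cer1*, the one gene of the 4 without a SUZ12 or H3K27me3 peak. The motif TATAAA was in none of the 4 windows on either strand and in 13.0% of all promoters. Only this exact motif was searched, so similar stretches, such as tatataag near the end of the *Eomes* window, were not counted.

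The RNA-seq libraries held 3604123 to 5181553 reads, and replicate libraries of a line correlated at r = 0.953 to 0.978 across genes. The deleted genes followed the labels. *Ezh2* averaged 572 normalized counts in WT against 1.01 in *Ezh2* KO and 1.30 in *Ezh1/2* dKO ESCs, and *Ezh1* had 17.2 in *Ezh1/2* dKO, 19.9 in *Ezh2* Y726D and 302 in WT ESCs. The 8 ESC markers examined, *Pou5f1* and *Nanog* among them, had reads in every library and 0 calls by limma in any mutant against WT, with 1 of them at an unadjusted p under 0.05 in *Ezh1/2* dKO and none in the other lines, and edgeR and DESeq2 also called 0. The labels number the 2 libraries of a line without naming separate cultures. The study's reporting summary, in its ChIP-seq part, states biological replicates for all samples without describing them. The p-values measure the spread between these libraries, and how far that spread is technical is not known.

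*T* encodes the T-box factor needed for mesoderm formation. Replicates 1 and 2 had 12.0 and 11.6 normalized counts in WT, 0 and 2.90 in *Ezh2* KO, 5.35 and 51.5 in *Ezh2* Y726D and 11.5 and 11.5 in *Ezh1/2* dKO ESCs. Both *Ezh2* KO libraries were below every other library, and the 2 *Ezh2* Y726D libraries lay on either side of WT and *Ezh1/2* dKO. Of all tested genes, 17.6% had both *Ezh2* KO libraries below both WT libraries. These levels rest on few reads, 21 over both WT libraries, 3 over both *Ezh2* KO and 27 over both *Ezh1/2* dKO libraries. *Ezh2* Y726D had 52, of which 46 were in replicate 2. Against WT, the log2 fold change (here always of the normalized count plus 1) was -2.69 in *Ezh2* KO (adjusted p = 0.444), 0.51 in *Ezh2* Y726D (adjusted p = 0.886) and -0.03 in *Ezh1/2* dKO ESCs (adjusted p = 0.99), each with an SE of 0.98 (limma). The *Ezh2* KO value was -1.71 without *Ezh2* KO replicate 1, -3.68 without replicate 2 and -1.59 with a pseudocount of 4. In bulk RNA, fewer cells that express a gene and less RNA per cell cannot be told apart.

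*Eomes*, the other T-box factor, had 36.0 and 28.9 normalized counts in WT, 32.4 and 32.9 in *Ezh2* KO, 43.7 and 110.8 in *Ezh2* Y726D and 38.7 and 28.4 in *Ezh1/2* dKO ESCs. Both *Ezh2* Y726D libraries were above the other 6, where 19.0% of all tested genes had both above both WT libraries. The means of *Ezh1/2* dKO, *Ezh2* KO and WT ESCs, 33.6 ± 7.30, 32.7 ± 0.345 and 32.5 ± 5.04 (SD, n = 2), differed by less than the spread between libraries. The log2 fold change against WT was 1.09 in *Ezh2* Y726D ESCs (SE 0.46, 95% confidence interval 0.06 to 2.12, adjusted p = 0.322, limma), and 0.02 and 0.04 in *Ezh2* KO and *Ezh1/2* dKO ESCs.

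*Mixl1*, the homeobox factor of the streak, had 8.0 and 20.2 normalized counts in WT, 7.32 and 4.84 in *Ezh2* KO, 10.7 and 19.0 in *Ezh2* Y726D and 15.7 and 26.6 in *Ezh1/2* dKO ESCs. The *Ezh2* KO libraries were the lowest, where 17.6% of all tested genes had both below both WT libraries. The WT range held the *Ezh2* Y726D values and overlapped the *Ezh1/2* dKO values. The log2 fold change against WT was -0.99 (SE 0.60, adjusted p = 0.69) in *Ezh2* KO, 0.15 (SE 0.60, adjusted p = 0.954) in *Ezh2* Y726D and 0.64 (SE 0.60, adjusted p = 0.607) in *Ezh1/2* dKO ESCs (limma). Leaving out WT replicate 1 gave -1.61, -0.47 and 0.02 in the same order, and leaving out WT replicate 2 gave -0.37, 0.77 and 1.25.

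*Cer1*, the secreted antagonist, had 7 reads over the 8 libraries. In normalized counts these were 3.14 and 1.94 in *Ezh2* KO, 0 and 1.12 in *Ezh2* Y726D, 0.824 and 0 in *Ezh1/2* dKO, and 0 and 0 in WT ESCs. Its mean of 0.877 was under the minimum of 5 that a gene needed to be tested, so it has no fold change. The 0 reads in WT allow up to 3 over both libraries for counting error alone, and the 5 reads in *Ezh2* KO are not separable from that at this depth.

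*Kdr*, the VEGF receptor, had 18.7 and 7.70 normalized counts in WT, 3.14 and 9.68 in *Ezh2* KO, 37.4 and 95.1 in *Ezh2* Y726D and 19.8 and 59.5 in *Ezh1/2* dKO ESCs. The *Ezh1/2* dKO and *Ezh2* Y726D libraries were all above both WT libraries and overlapped each other, and the *Ezh2* KO and WT ranges also overlapped. Such a separation was common. Among the 13872 tested genes, 3879 had both *Ezh1/2* dKO libraries above both WT libraries, and 2636 had both *Ezh2* Y726D libraries above them. The log2 fold change against WT was 2.22 in *Ezh2* Y726D ESCs (SE 0.74, 95% confidence interval 0.55 to 3.88, adjusted p = 0.2), 1.44 in *Ezh1/2* dKO (SE 0.74, interval -0.23 to 3.11, adjusted p = 0.328) and -0.98 in *Ezh2* KO ESCs (SE 0.74, interval -2.65 to 0.69, adjusted p = 0.762, limma). The *Ezh1/2* dKO value was 2.21 without *Ezh1/2* dKO replicate 1, 0.67 without replicate 2 and 0.85 without WT replicate 2. The *Ezh2* KO value was -0.29 without *Ezh2* KO replicate 1, -0.39 without WT replicate 1, -1.66 without *Ezh2* KO replicate 2 and -1.57 without WT replicate 2. None of these was called by limma.

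**Figure D1:**
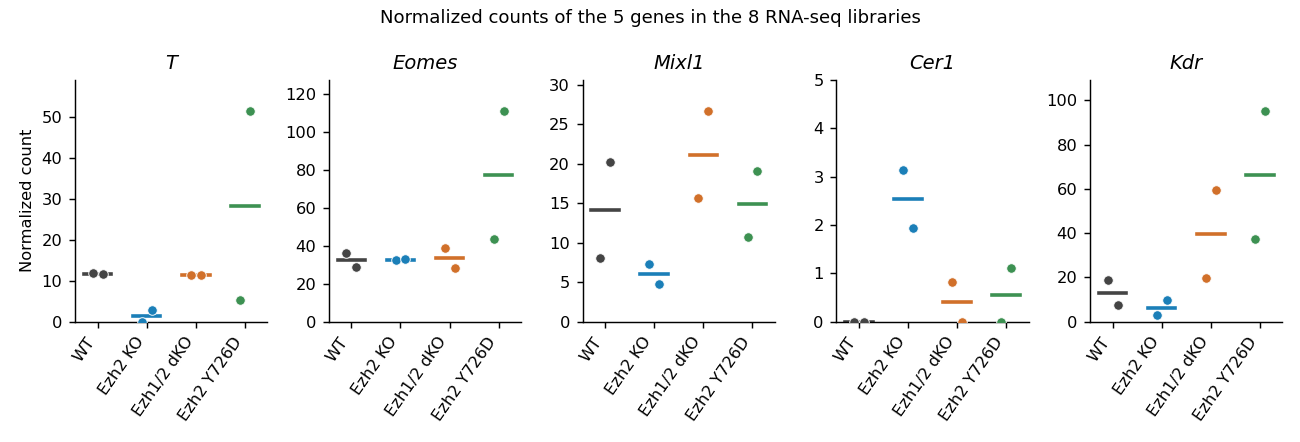
Normalized counts (y axis) of *T*, *Eomes*, *Mixl1*, *Cer1* and *Kdr* in each of the 8 RNA-seq libraries, by line (x axis). Each point is 1 library and each short line the mean of the 2 libraries of a line. Replicate 2 of *Ezh2* Y726D is the highest point for *T*, *Eomes* and *Kdr*, at 51.5, 110.8 and 95.1.

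Per kilobase of exon, the scale on which genes can be set side by side, the mean level in WT ESCs was 7.81 normalized counts for *Eomes*, 6.15 for *Mixl1*, 5.10 for *T*, 1.81 for *Kdr* and 0 for *Cer1*. *Eomes* also had the highest level per kilobase in *Ezh2* KO (7.86) and *Ezh2* Y726D ESCs (18.6), and *Mixl1* in *Ezh1/2* dKO ESCs (9.22). By mean normalized count over the 8 libraries, *Eomes* stood at the 44.4th percentile of the 18055 genes, *Kdr* at the 41.1st, *Mixl1* at the 33.2nd, *T* at the 32.6th and *Cer1* at the 8.67th.

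In the comparison of *Ezh2* KO with WT ESCs, 0 of the 4 tested genes were called higher or lower (adjusted p under 0.1 and a log2 fold change of at least 1 in size), where 0.0937% of the 13872 tested genes were called higher and 0.310% lower. In *Ezh1/2* dKO against WT ESCs, 0 of the 4 were called, beside 3.63% of all tested genes called higher and 0.389% lower. In *Ezh2* Y726D against WT ESCs, 0 of the 4 were called by limma, beside 1.66% called higher and 1.06% lower. An unadjusted p under 0.05 was reached by *T* in *Ezh2* KO (0.0217) and by *Kdr* (0.0146) and *Eomes* (0.041) in *Ezh2* Y726D ESCs, so by 1, 2 and, in *Ezh1/2* dKO, 0 genes. edgeR on the recovered reads also called 0 in each of the 3 comparisons, and DESeq2 called 1, *Kdr* in *Ezh2* Y726D ESCs (log2 fold change 2.35, adjusted p = 0.0659). The median log2 fold change of the 4 tested genes was 0.80 in *Ezh2* Y726D, 0.34 in *Ezh1/2* dKO and -0.98 in *Ezh2* KO ESCs, and that of all tested genes lay between -0.01 and 0.01. The 3 comparisons share the WT libraries.

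**Figure D2:**
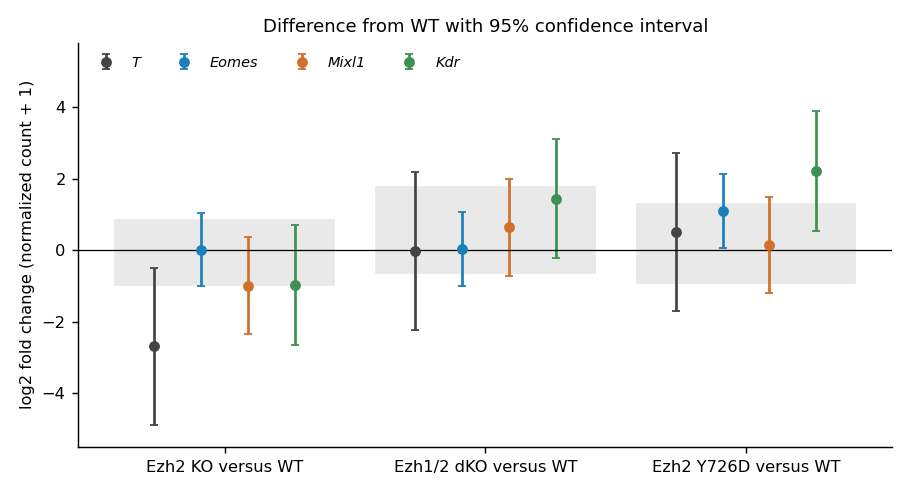
Log2 fold change against WT (y axis, normalized count plus 1) of *T*, *Eomes*, *Mixl1* and *Kdr* in the 3 mutant lines (x axis), with limma 95% confidence intervals as bars. Grey bands run from the 5th to the 95th percentile of all 13872 tested genes. The interval of *T* in *Ezh2* KO (-4.90 to -0.49) and those of *Eomes* and *Kdr* in *Ezh2* Y726D ESCs leave out 0, and none of the 12 values passed the adjusted threshold.

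Between mutants, *Kdr* was higher in *Ezh2* Y726D than in *Ezh2* KO ESCs, with means of 66.3 ± 40.8 and 6.41 ± 4.62 normalized counts (SD, n = 2), a log2 fold change of 3.19 (SE 0.74, 95% confidence interval 1.52 to 4.86) and an adjusted p of 0.0673 (limma). It was the 1 gene of the 4 called in that comparison, in which 2.31% of all tested genes were called higher and 1.21% lower. edgeR also called *Kdr* there, and DESeq2 called *Kdr* and *T*. The call did not hold without either *Ezh2* KO library (2.51, adjusted p = 0.319 without replicate 1, and 3.88, adjusted p = 0.156 without replicate 2) or without *Ezh2* Y726D replicate 2 (2.53, adjusted p = 0.301). *T* had a log2 fold change of 3.21 in the same comparison, with an adjusted p of 0.145 (limma), on 52 against 3 reads.

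Between *Ezh1/2* dKO and *Ezh2* KO ESCs, 0 of the 4 genes were called by limma, beside 3.52% of all tested genes called higher in *Ezh1/2* dKO and 0.0577% called lower. There the log2 fold changes were 2.67 for *T*, 2.42 for *Kdr*, 1.62 for *Mixl1* and 0.02 for *Eomes*, with adjusted p of 0.255, 0.16, 0.26 and 0.992 (limma), and 3 genes had an unadjusted p under 0.05. edgeR called 0 and DESeq2 called *Kdr* in this comparison. A limma fit of only the 4 libraries compared called 3 genes at the same fold changes, *Kdr* (adjusted p = 0.0422), *T* (0.0568) and *Mixl1* (0.088), where it called 1181 genes of the whole table against 496 with all 8 libraries. Between *Ezh2* Y726D and *Ezh1/2* dKO ESCs, both without a listed H3K27me3 peak at these genes, 0 of the 4 were called, beside 0.187% of all tested genes called higher in *Ezh2* Y726D and 1.49% called lower, and edgeR and DESeq2 also called 0. The largest difference between those lines was that of *Eomes*, with a log2 fold change of 1.05 (95% confidence interval 0.02 to 2.08, adjusted p = 0.374, limma), where *Eomes* was also the 1 gene at an unadjusted p under 0.05, and *Kdr* differed by 0.78 (interval -0.89 to 2.45).

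The *Ezh2* Y726D values of *T* and *Eomes* depended on 1 library. Without *Ezh2* Y726D replicate 2, the log2 fold change against WT was -1.01 for *T*, 0.43 for *Eomes* and 1.56 for *Kdr*. Without replicate 1 it was 2.04, 1.75 and 2.88, and *Eomes* was then called (adjusted p = 0.0807, limma). Replicate 2 also had the highest summed level of other early lineage markers. The sums were 1811 normalized counts over the 10 primitive endoderm markers and 1274 over the 8 trophectoderm markers. They were 1072 and 753 in replicate 1, and 459 to 550 and 343 to 467 in WT ESCs. The rise from replicate 1 to 2 came mostly from *Lama1* (237 to 757), *Col4a1* (718 to 954) and *Cdx2* (33.0 to 439.7). Other markers went both ways, and *Dab2* (22.3 to 7.83), *Gata3* (124 to 107) and *Krt18* (194 to 147) fell. The part of other cell types in the values of *T*, *Eomes* and *Kdr* was not tested.

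SUZ12 and H3K27me3 were read as listed MACS2 peaks with a p of at most 1e-10 that overlapped the 5 kb on either side of a start site by at least 1 bp. In WT ESCs, 4 of the 5 genes (*T*, *Eomes*, *Mixl1* and *Kdr*) had a SUZ12 peak, beside 14.4% of the 22367 protein-coding genes, and the same 4 had an H3K27me3 peak, beside 18.8%. The SUZ12 peak of *Eomes* was the strongest, with a -log10 p of 81.5 from -2103 to 2291 bp around the first start site, and a second one of 21.8 lay beyond the end of the gene. The peak of *Kdr* had a -log10 p of 69.8 and ran from -449 to 1014 bp, that of *T* 66.9 from -2050 to 1229 bp, and that of *Mixl1* 34.8 from -726 to 557 bp. All 4 covered the start site and stood at the 91.3rd, 87.5th, 86.6th and 66.3rd percentile of the 5404 SUZ12 peaks of the WT list. H3K27me3 in WT ESCs was listed in several shorter pieces around each of the 4 start sites, with a -log10 p of 10.2 to 25.3.

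In *Ezh2* KO ESCs, H3K27me3 peaks were listed at the same 4 genes, beside 14.8% of all protein-coding genes and 86.3% of the 2945 genes with both a SUZ12 and an H3K27me3 peak in WT ESCs. Here each gene had 1 strong peak of 2316 to 3701 bp over the start site. The -log10 p was 266 at *T*, 191 at *Kdr*, 169 at *Eomes* and 70.7 at *Mixl1*. These peaks stood at the 92.5th, 88.9th, 87.6th and 76.9th percentile of that list. Their values cannot be set beside those of WT ESCs as a measure of more or less H3K27me3. By western blot, the paper reported that H3K27me3 in bulk seemed to be lost in *Ezh2* KO ESCs. From its ChIP-seq it reported that significant H3K27me3 was still present at sites bound by PRC2 in these cells. SUZ12 was listed at 3 genes (*T*, *Eomes* and *Kdr*), beside 4.22% of all protein-coding genes and 31.7% of the 2945. Those SUZ12 peaks were weak, with a -log10 p of 11.3 to 15.1, and none passed a p of 1e-20. *Mixl1* had an H3K27me3 peak without a SUZ12 peak.

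In *Ezh1/2* dKO ESCs, 0 of the 5 genes had an H3K27me3 peak, beside 0.103% of all protein-coding genes and 0.713% of the 2945, and *Mixl1* alone had a SUZ12 peak, beside 1.03% of all protein-coding genes and 7.78% of the 2945. This peak, from 91 to 405 bp after the start site with a -log10 p of 10.8, was near the listing threshold. In *Ezh2* Y726D ESCs, 0 of the 5 genes had an H3K27me3 peak either, beside 1.35% and 0.849%, yet SUZ12 was listed at all 4 genes bound in WT ESCs, beside 10.3% of all protein-coding genes and 63.8% of the 2945. The *Ezh2* Y726D peaks reached a -log10 p of 27.6 at *Kdr*, 26.4 at *Mixl1*, 20.2 at *T* and 16.6 at *Eomes*. At *T* and *Eomes* the single WT peak over the start site was replaced in this list by 1 piece on either side of it. The samples of these 2 targets were labelled for Y726D without naming the *Ezh1* deletion and were taken as the same line.

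In *Ezh2* R685C ESCs, the same 4 genes had a SUZ12 peak, beside 8.44% of all protein-coding genes and 60.7% of the 2945, and an H3K27me3 peak, beside 24.6% of all protein-coding genes and 96.0% of the 2945. The SUZ12 peaks had a -log10 p of 79.1 at *Eomes*, 59.8 at *T*, 39.8 at *Kdr* and 21.9 at *Mixl1*, the order of WT ESCs except that *T* and *Kdr* changed places. The H3K27me3 peaks had a -log10 p of 219 at *Kdr*, 212 at *T*, 181 at *Eomes* and 71.2 at *Mixl1*, at the 86.3rd to 95.5th percentile of the list. The values of different lists depend on the depth of each library, which is unknown, so they order the genes within a line and not the lines.

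HA-tagged EZH1 expressed in *Ezh1/2* dKO ESCs was listed at *T*, *Eomes*, *Mixl1* and *Kdr*, 4 of the 5 genes beside 11.0% of all protein-coding genes and 64.2% of the 2945, and HA peaks of the *Ezh1/2* dKO ESCs without the tagged protein at 0 of the 5, beside 2.90% and 4.96%. The HA peaks overlapped the WT SUZ12 peaks at each of these start sites, at *T* from -2106 to 1132 bp and at *Kdr* from -36 to 1246 bp. No value of strength was listed for HA.

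**Figure D3:**
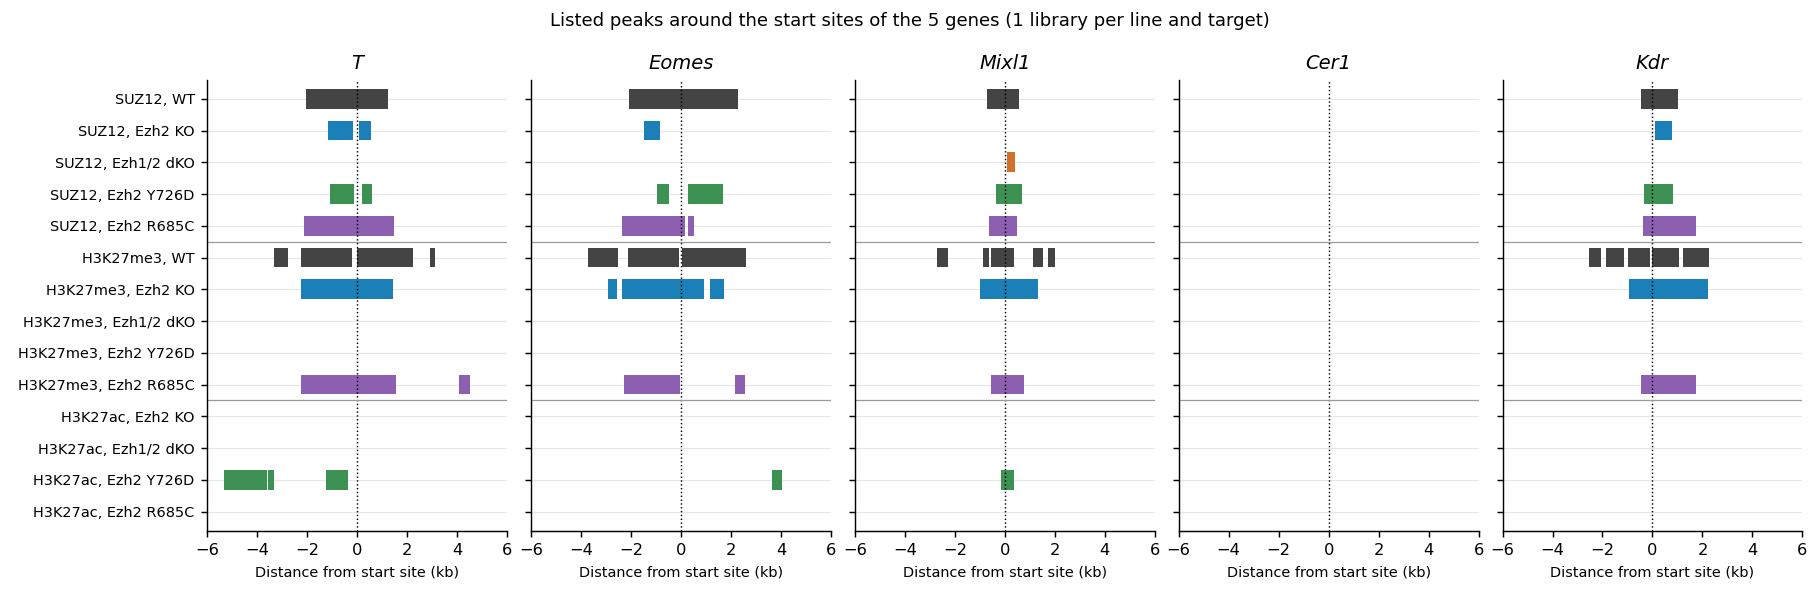
Listed peaks of SUZ12, H3K27me3 and H3K27ac by line (rows) against the distance from the first start site in kb (x axis, positive along the gene) for the 5 genes, each bar being 1 peak. SUZ12 bars cross or flank the start site of *T*, *Eomes*, *Mixl1* and *Kdr* in WT, *Ezh2* Y726D and *Ezh2* R685C ESCs, H3K27me3 bars are missing in *Ezh1/2* dKO and *Ezh2* Y726D ESCs, and *Cer1* has no bar.

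H3K27ac lists were used for the 4 mutant lines, and a WT list was not analysed here. In *Ezh2* Y726D ESCs, 3 of the 5 genes (*T*, *Eomes* and *Mixl1*) had an H3K27ac peak within 5 kb of a start site, beside 47.1% of all protein-coding genes and 45.2% of the 2945. None of the 5 had one in *Ezh2* KO ESCs, beside 37.9% and 14.3%, in *Ezh1/2* dKO ESCs, beside 28.7% and 18.7%, or in *Ezh2* R685C ESCs, beside 46.0% and 20.5%. The 3 of 5 in *Ezh2* Y726D ESCs is near the share of all genes in that list. The difference between lines was not tested, with 1 library each.

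At *Mixl1* the *Ezh2* Y726D H3K27ac peak lay over the start site, from -137 to 364 bp with a -log10 p of 12.2, inside the stretch that SUZ12 covered in the same line. At *T*, 1 peak of 12.2 lay from -1234 to -377 bp, 2 more of 17.0 and 10.5 lay between -5340 and -3333 bp, and 4 others, of 10.1 to 23.1, lay between -26170 and -19326 bp in an intron of the non-coding transcript annotated as *T2*. None of these 7 had a counterpart in the other 3 lists within 25 kb of the start. At *Eomes* the peak within the window, from 3655 to 4053 bp with a -log10 p of 10.5, lay over an exon. The 5 peaks within the window stood between the 4.93rd and the 58.1st percentile of the *Ezh2* Y726D list, and none had a p of at most 1e-20. *Kdr* had 1 H3K27ac peak in the *Ezh2* Y726D list, of 12.6 in an intron from 35852 to 36239 bp, and none in the other lists.

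Downstream of *Eomes* the pattern was different. The intergenic stretch from 9343 to 20850 bp after the start, beyond the end of the gene, held 3 H3K27ac peaks in *Ezh2* KO, 6 in *Ezh2* Y726D and 2 in *Ezh2* R685C ESCs, at a -log10 p of 10.5 to 24.8, and none in *Ezh1/2* dKO ESCs. The peaks fell in 2 groups, from 9343 to 11702 bp and from 17859 to 20850 bp, in each of the 3 lines. *Eomes* itself had 32.7 normalized counts in *Ezh2* KO and 33.6 in *Ezh1/2* dKO ESCs. The *Ezh1/2* dKO list was the shortest of the 4, with 17618 peaks against 25483 to 41185, and its part in the missing peaks was not tested.

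**Figure D4:**
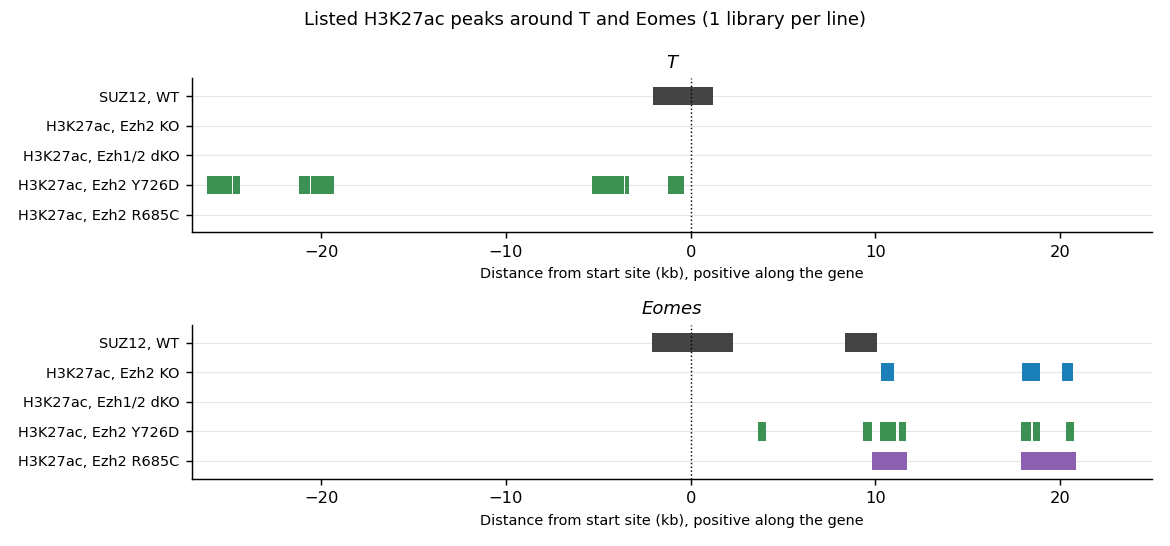
Listed H3K27ac peaks of the 4 mutant lines and SUZ12 peaks of WT ESCs (rows) around *T* and *Eomes*, against the distance from the first start site in kb (x axis). At *T*, of the 4 H3K27ac rows, that of *Ezh2* Y726D alone holds peaks, 4 of them between -26.2 and -19.3 kb, and the *Eomes* peaks beyond 9.34 kb appear in *Ezh2* KO, *Ezh2* Y726D and *Ezh2* R685C but not in *Ezh1/2* dKO ESCs.

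H3K27me2, the state from which H3K27me3 is made, was listed as broad regions in the 4 lines with RNA-seq. In *Ezh2* KO ESCs the strongest region within 5 kb of a start site had a -log10 p of 7.55 at *Eomes*, 5.99 at *T*, 5.18 at *Mixl1*, 4.61 at *Kdr* and 2.62 at *Cer1*. These stood at the 95.9th, 88.6th, 82.8th, 77.7th and 56.4th percentile of the 11510 genes with a region in that list, whose median was 2.29. The regions filled the whole window at *T* and *Kdr* and 64.5%, 57.6% and 51.4% of it at *Eomes*, *Mixl1* and *Cer1*. In the other 3 lines no region at these genes passed a -log10 p of 2.08, and *Mixl1* and *Kdr* had none in WT ESCs. The lists go down to a -log10 p of 1.00 to 1.01. They cover 356 Mb in WT, 424 Mb in *Ezh2* KO, 628 Mb in *Ezh2* Y726D and 639 Mb in *Ezh1/2* dKO ESCs. A weak listed region therefore says little about a single gene, and the values order the genes within a line and not the lines. The 4 genes with H3K27me3 peaks in *Ezh2* KO ESCs were thus also those with the stronger H3K27me2 regions there, on 1 library per line.

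**Figure D5:**
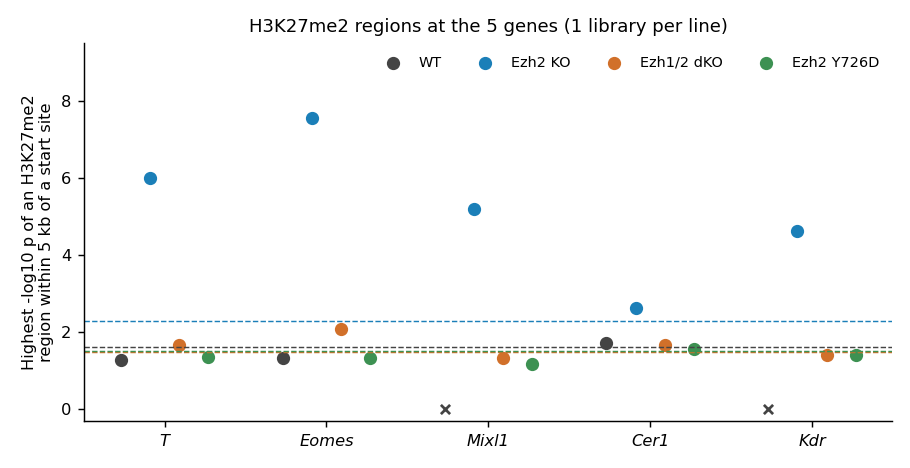
Strongest listed H3K27me2 region within 5 kb of a start site (y axis, -log10 p) for the 5 genes in 4 lines. Crosses at 0 stand for no listed region and dashed lines for the median over the genes with a region in that line. The *Ezh2* KO points run from 2.62 at *Cer1* to 7.55 at *Eomes*, and all others are at 2.08 or below. The values order the genes within a line and not the lines.

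Other genes of the same steps were taken as lists. Of 22 transcription factors of the streak and early mesoderm other than *T*, *Eomes* and *Mixl1*, 19 were in the table and 9 were tested. In *Ezh2* KO ESCs 0 of the 9 were called by limma (3 at an unadjusted p under 0.05, and 0 called by edgeR and by DESeq2), with a median log2 fold change of -0.44, beside -0.01 over all tested genes. The largest value there was -3.00 for *Sp5*, a WNT target, on an adjusted p of 0.404. In *Ezh1/2* dKO ESCs *Cdx4*, a caudal-type homeobox factor of the posterior streak, was called higher by limma, with 17.3 and 24.9 against 1.33 and 4.81 normalized counts in WT ESCs (log2 fold change 2.56, SE 0.66, adjusted p = 0.0818), and edgeR but not DESeq2 also called it. In *Ezh2* Y726D ESCs *Meox1*, a somite homeobox factor, was called higher (log2 fold change 3.46, adjusted p = 0.0614, limma), and neither edgeR nor DESeq2 called it. It had 6.24 and 15.7 normalized counts there against 0 and 0 in WT ESCs. *Meox1* also lay above WT in the other mutants, where limma did not call it. Its log2 fold change was 2.71 for *Ezh1/2* dKO (5.77 and 5.33 normalized counts, adjusted p = 0.102, limma). For *Ezh2* KO it was 2.38 (2.09 and 7.74 normalized counts, adjusted p = 0.343, limma). The list medians were 0.31 for *Ezh1/2* dKO and 0.78 for *Ezh2* Y726D ESCs. *Cdx2* repeated the split between libraries seen for *T*, with 33.0 and 439.7 normalized counts in *Ezh2* Y726D ESCs. It had 70.7 and 9.63 in WT ESCs, so its WT libraries also lay far apart.

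Of 21 ligands, receptors and antagonists of the streak-inducing signals, 16 were tested and *Bmp4*, the mesoderm-inducing BMP ligand, was the 1 called against WT. It had 736 and 688 normalized counts in *Ezh2* Y726D against 314 and 373 in WT ESCs (log2 fold change 1.06, SE 0.15, adjusted p = 0.0161, limma), and edgeR and DESeq2 called it too. In *Ezh2* KO and *Ezh1/2* dKO ESCs 0 of the 16 were called by any of the 3 tools, with 3 and 2 genes at an unadjusted p under 0.05 (limma), and the list medians were 0.13, 0.23 and 0.09 in the 3 lines. The largest values in those lines were 1.04 for the activin receptor *Acvr1b* in *Ezh2* KO and 0.75 for the NODAL pathway effector *Smad3* in *Ezh1/2* dKO ESCs, with adjusted p of 0.367 and 0.421.

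Of 14 haemangioblast and endothelial genes other than *Kdr*, 8 were tested. In *Ezh2* Y726D ESCs *Vegfa*, the ligand of the receptor that *Kdr* encodes, was called lower, with 62.4 and 43.6 normalized counts against 137 and 125 in WT ESCs (log2 fold change -1.31, SE 0.31, adjusted p = 0.0765, limma), by DESeq2 as well and not by edgeR. *Runx1* and *Nrp1* had log2 fold changes of 2.54 and 2.25 there, with adjusted p of 0.115 and 0.18. In *Ezh2* KO and *Ezh1/2* dKO ESCs 0 of the 8 were called by any of the 3 tools, and 0 and 2 had an unadjusted p under 0.05 (limma). The 2 in *Ezh1/2* dKO ESCs were again *Runx1* and *Nrp1*. Their log2 fold changes there were 2.13 and 2.27, with adjusted p of 0.145 and 0.14 (limma). The medians were 0.91 in *Ezh2* Y726D, 0.93 in *Ezh1/2* dKO and 0.26 in *Ezh2* KO ESCs.

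Peaks at the listed genes were counted in the same way. Of 21 annotated transcription factors of the list, 16 had a SUZ12 peak in WT, 14 in *Ezh2* R685C, 11 in *Ezh2* KO, 11 in *Ezh2* Y726D and 3 in *Ezh1/2* dKO ESCs. H3K27me3 peaks were listed at 16, 18, 17, 0 and 0 of them in the same order, and H3K27ac peaks at 8 in *Ezh2* Y726D, 4 in *Ezh2* R685C, 3 in *Ezh2* KO and 1 in *Ezh1/2* dKO ESCs. Of the 21 signal genes, 7 had a SUZ12 peak in WT ESCs and 11 to 16 an H3K27ac peak in each of the 4 mutant lines. Of the 14 haemangioblast and endothelial genes, 8 had a SUZ12 peak in WT and 7 in *Ezh2* Y726D ESCs. H3K27ac peaks were listed at 9 of them in *Ezh2* Y726D ESCs and at 4 in each of the other 3 lines. Over all protein-coding genes, the SUZ12 shares in WT, *Ezh2* R685C, *Ezh2* KO, *Ezh2* Y726D and *Ezh1/2* dKO ESCs were 14.4%, 8.44%, 4.22%, 10.3% and 1.03%. The H3K27me3 shares were 18.8%, 24.6%, 14.8%, 1.35% and 0.103%. Those of H3K27ac in the 4 mutants, in the same order, were 46.0%, 37.9%, 47.1% and 28.7%.

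Markers of other cell types were counted in the same way. Of 7 tested primitive endoderm markers, 4 were called higher in *Ezh1/2* dKO (*Gata4*, *Dab2*, *Amn* and *Col4a1*) and 2 in *Ezh2* Y726D ESCs (*Amn* and *Col4a1*). Of 6 tested trophectoderm markers, *Gata3*, *Krt8* and *Krt18* were called higher in both lines (limma against WT). In *Ezh2* KO ESCs limma called 0 of either list, with 1 and 3 markers at an unadjusted p under 0.05. *Gata3* was not called by edgeR in *Ezh2* Y726D ESCs, nor *Gata4* by DESeq2 in *Ezh1/2* dKO ESCs. DESeq2 alone called *Sox7* in *Ezh1/2* dKO, *Esx1* in *Ezh2* Y726D and *Krt18* in *Ezh2* KO ESCs. The summed primitive endoderm level was 459 to 550 normalized counts in WT, 402 to 693 in *Ezh2* KO, 1072 to 1811 in *Ezh2* Y726D and 1377 to 1394 in *Ezh1/2* dKO ESCs. The 4 highest values of *Kdr*, which limma did not call against WT, were in the libraries of the last 2 lines. Within *Ezh1/2* dKO ESCs, replicates 1 and 2 had primitive endoderm sums of 1394 and 1377 and trophectoderm sums of 850 and 1046. Their *Kdr* values were 19.8 and 59.5. The fibroblast marker *Thy1*, the only tested one of its list, was called higher in *Ezh1/2* dKO and *Ezh2* Y726D ESCs (log2 fold change 3.54 and 3.30). Of 6 tested neural and epiblast markers, 0 were called against WT by limma. An unadjusted p under 0.05 was reached by 2 in *Ezh2* KO ESCs and 0 in the others. Against WT edgeR called 0 of them, and DESeq2 called 1, *Dnmt3b* in *Ezh2* KO ESCs. What these markers contribute to the values of the 5 genes was not tested.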

How the data were processed

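RNA-seq of mouse ESCs followed SMART-seq2, a poly(A) protocol. Reads were aligned by the authors to mm9 (TopHat), freed of duplicates (PICARD), counted per RefSeq gene without strand (HTSeq-count) and scaled by DESeq2 size factors, so the deposited values are a signal per gene, here called normalized counts. All (100%) were whole multiples, within 0.001, of the worth of 1 read, which gave back the reads. For ChIP-seq and ATAC-seq, Bowtie, PICARD and MACS2 were used by the authors on each library separately. The deposited lists give the -log10 p and fold enrichment of each peak over its own background (positions only were used for HA). Tables of the authors' own comparisons (log2 fold changes and p-values) were not used.

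The test was limma 3.58.1 (R 4.3.3, mean-variance trend) on log2(normalized count + 1) over all 8 libraries. It covered the 13872 genes averaging at least 5 normalized counts, with Benjamini-Hochberg adjustment over all of them. Genes past an adjusted p of 0.1 whose log2 fold change was 1 or more in size were called. Recovered reads also went through edgeR 4.0.16 (quasi-likelihood) and DESeq2 1.42.0. Scripts were tested on simulated data. Start sites came from the GENCODE annotation of mm9, and percentiles are within 1 list. Alternatives changed the pseudocount, filter, scaling, tool, libraries, window, overlap and peak threshold. The labels do not pair same-numbered replicates, whose deviations from the line means correlated at -0.409 to 0.288. The 5 genes and the gene lists were chosen with earlier results of these data known. From the lists, genes called against WT or with the largest changes were named, and *Cdx2* was named after its values were seen. RING1B, H2AK119ub, input, rescue lines other than HA-EZH1 and treated samples were not analysed here.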

Additional observations from a re-analysis of the deposited data

Results flagged for a closer look

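The log2 fold change of *Kdr* between *Ezh2* Y726D and *Ezh2* KO ESCs, 3.193 (limma, adjusted p = 0.0673), stands for a difference between 2 mutant lines in their change from WT, since *Kdr* was at 2.22 in *Ezh2* Y726D and at -0.98 in *Ezh2* KO ESCs against the same WT libraries. *Kdr* was higher in 2 of 2 *Ezh2* Y726D libraries than in both *Ezh2* KO libraries, at 37.4 and 95.1 against 3.14 and 9.68 normalized counts. The call rests on these same values, and the share of all genes with such a separation was not counted. The call did not hold without either *Ezh2* KO library, without *Ezh2* Y726D replicate 2 or without the filter on low values.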

How the results depend on the processing

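Of the counts of called genes among the 5 under other settings, 61 stayed within 1.5 times the reported count and 11 did not. DESeq2 called 1 gene (*Kdr*) in *Ezh2* Y726D against WT, 1 (*Kdr*) in *Ezh1/2* dKO against *Ezh2* KO and 2 (*Kdr*, *T*) in *Ezh2* Y726D against *Ezh2* KO ESCs. With only the 4 libraries compared, 3 genes (*T*, *Mixl1*, *Kdr*) were called in *Ezh1/2* dKO against *Ezh2* KO. Without the filter on low values, 0 were called in *Ezh2* Y726D against *Ezh2* KO (*Kdr*, adjusted p = 0.112). Leaving out 1 library gave 0 to 3 calls in *Ezh2* Y726D against *Ezh2* KO, 0 to 1 against *Ezh1/2* dKO and 0 to 1 against WT. It turned the sign of 6 fold changes, which then ran from -0.137 to 0.171 (*Eomes*, *Ezh2* KO against WT), -0.177 to 0.257 (*Eomes*, *Ezh1/2* dKO against WT), -0.194 to 0.240 (*Eomes*, *Ezh1/2* dKO against *Ezh2* KO), -0.472 to 0.765 (*Mixl1*, *Ezh2* Y726D against WT), -1.009 to 2.038 (*T*, *Ezh2* Y726D against WT) and -0.982 to 2.065 (*T*, *Ezh2* Y726D against *Ezh1/2* dKO). No other setting turned a sign. At a peak p of at most 1e-20, 0 of the 5 genes kept a SUZ12 peak in *Ezh2* KO or *Ezh1/2* dKO and 0 an H3K27ac peak in *Ezh2* Y726D ESCs. Within 10 kb, 1 gene (*Eomes*) had an H3K27ac peak in *Ezh2* KO and 1 (*Eomes*) in *Ezh2* R685C ESCs. Apart from the libraries or peaks a setting leaves out, the cause was not tested.

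A replicate block changed the call of none of the 4 genes and left 34 genes of the whole table called in *Ezh2* KO against WT, beside 56 without it. In that comparison edgeR called 30, DESeq2 149, the fit of 4 libraries 28 and the fit without a filter 35. With only the 4 libraries compared, the calls over all genes were 1181 beside 496 (*Ezh1/2* dKO against *Ezh2* KO), 228 beside 489 (*Ezh2* Y726D against *Ezh2* KO), 150 beside 233 (*Ezh2* Y726D against *Ezh1/2* dKO) and 32 beside 377 (*Ezh2* Y726D against WT). A minimum mean of 20 left 258 in *Ezh1/2* dKO against *Ezh2* KO. Without 1 library they ran from 3 to 572 (*Ezh1/2* dKO), 6 to 135 (*Ezh2* KO) and 220 to 546 (*Ezh2* Y726D) against WT, from 53 to 240 (*Ezh1/2* dKO) and 98 to 962 (*Ezh2* Y726D) against *Ezh2* KO, and from 14 to 514 in *Ezh2* Y726D against *Ezh1/2* dKO. Depth limited *T*, *Mixl1* and *Cer1*, with 103, 117 and 7 reads over the 8 libraries, and 1 library per peak list left no replicate error.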

Other observations

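The genes whose log2 values followed each of the 4 tested genes most closely over the 8 libraries were *Tmem151b*, *Mlana* and *Ccdc3* for *T* (Pearson r 0.965, 0.965 and 0.955), *Det1*, *Omd* and *Armc6* for *Eomes* (0.973, 0.963 and 0.951), *Syt2*, *Arl14epl* and *Prss23* for *Mixl1* (0.956, 0.952 and 0.934) and *Kcnj12*, *Wnt6* and *Rab6b* for *Kdr* (0.986, 0.974 and 0.968). Among the 4 genes themselves, *T* and *Kdr* were most alike (r = 0.789) and *Eomes* and *Mixl1* least (r = 0.180). These values describe 8 libraries in 4 lines that share their line and depth, and each trio is the best of all tested genes.

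ATAC-seq regions were listed within 5 kb of a start site of all 5 genes in all 4 lines, *Cer1* included, with a strongest -log10 p of 1.47 to 2.56. The ATAC-seq lists cover 604 to 645 Mb, so a listed region says little about a single gene. H3K27me1 regions had a -log10 p of at most 2.63 at the 5 genes. *Cer1* was not read for H3K27me1 in *Ezh2* Y726D ESCs, where the entries of the list did not include its chromosome, chromosome 4. In WT ESCs only the window of *Mixl1* held an H3K27me1 region. It ran from 4682 to 12932 bp after the start, beyond the end of the gene, and covered 319 bp (3.19%) of the window.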
